A study of Mus musculus with 28 samples.

Results

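RBBP4 is a histone-binding WD40 protein that shuttles between several chromatin complexes. In unmodified mouse fibroblasts, 25717 of the 82893 regions of the deposited region table held an RBBP4 peak, which is the set described here. A region belongs to it when the fraction of its length covered by RBBP4 peaks is above 0. Regions were then divided by the other subunits of the nucleosome remodelling and deacetylase complex (NuRD) measured in the same cells. In 13924 regions RBBP4 was the only subunit with a peak (RBBP4-only regions), and in 11793 regions at least 1 of CHD4, HDAC1, HDAC2, MBD2/3 and MTA1 also had a peak (shared regions). The remaining regions were 4569 with other subunits and no RBBP4, and 52607 with no subunit, which are in the table because of a peak of the histone variant H3.3.

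The cells were wild-type NIH/3T3 Tet-On 3G, mouse fibroblasts that grow indefinitely in culture and carry a doxycycline-responsive transactivator. The RBBP4 library and the libraries of the other 5 subunits and of H3K4me3, H3K9ac and H3K27ac came from cells with no transduced construct, with 1 library per protein or mark. H3.3 was precipitated through an HA tag in 2 replicates, from cells carrying an HA/FLAG-H3.3 construct that were given aphidicolin and doxycycline, so H3.3 was mapped in arrested cells and as a tagged copy. RBBP4 was also precipitated with the same antibody in H3.3 knockdown cells (transduced with OFP-H3.3A and GFP-H3.3B constructs) and in control cells (GFP-luciferase and OFP-luciferase constructs), with 1 library each. A sequential precipitation, FLAG and then RBBP4, set against FLAG and then IgG, used doxycycline-treated HA/FLAG-H3.3 cells. RNA was measured in 3 H3.3 knockdown clones and 2 luciferase control clones, whose treatment label also names the HA/FLAG-H3.3 fibroblasts with doxycycline.

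RBBP4 belongs to NuRD, to the SIN3 deacetylase complex, to the Polycomb complex PRC2, to the replication-coupled chromatin assembly factor CAF-1, to the remodeller NURF and to the MuvB core of the DREAM complex. MuvB with E2F4 or E2F5, DP and the pocket proteins p107 or p130 represses cell cycle genes in resting cells, and with B-MYB and FOXM1 it activates mitotic genes in dividing cells. Its subunit LIN54 binds a short element called the cell cycle genes homology region (CHR), which often lies close to the start site and near CCAAT boxes. The antibody does not separate these assemblies, and HDAC1 and HDAC2 are shared by NuRD and SIN3.

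Promoters are shown to make the letters searched below visible, for 4 genes with a shared region, 2 with an RBBP4-only region and 1 developmental gene without an RBBP4 region, all picked by hand after their levels and letters were seen. Each runs 5′ to 3′ on the gene's strand from 250 bases before to 50 bases after the RefSeq start in GRCm38.p6, while all peak and region coordinates below are mm9. Capitals mark the CHR letters TTTGAA and the CCAAT box on either strand, so that they also appear as their reverse complements.
Hjurp (the HJURP chaperone of the centromeric histone CENP-A, shared region, chr1:88277530-88277829, minus strand): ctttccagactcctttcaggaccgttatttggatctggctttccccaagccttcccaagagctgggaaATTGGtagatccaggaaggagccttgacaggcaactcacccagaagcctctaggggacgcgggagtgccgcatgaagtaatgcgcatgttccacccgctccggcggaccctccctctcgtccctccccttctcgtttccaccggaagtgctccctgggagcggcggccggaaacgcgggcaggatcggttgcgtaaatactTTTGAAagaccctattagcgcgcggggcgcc
Cenpf (a kinetochore protein, shared region, chr1:189688037-189688336, minus strand): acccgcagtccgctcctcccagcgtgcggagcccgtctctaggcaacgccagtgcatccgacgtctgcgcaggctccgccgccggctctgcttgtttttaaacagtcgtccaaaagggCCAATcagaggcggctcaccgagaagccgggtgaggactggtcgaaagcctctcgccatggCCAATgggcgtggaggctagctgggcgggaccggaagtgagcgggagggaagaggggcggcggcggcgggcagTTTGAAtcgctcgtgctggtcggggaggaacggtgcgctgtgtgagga
Cdk1 (the mitotic cyclin-dependent kinase, shared region, chr10:69352863-69353162, minus strand): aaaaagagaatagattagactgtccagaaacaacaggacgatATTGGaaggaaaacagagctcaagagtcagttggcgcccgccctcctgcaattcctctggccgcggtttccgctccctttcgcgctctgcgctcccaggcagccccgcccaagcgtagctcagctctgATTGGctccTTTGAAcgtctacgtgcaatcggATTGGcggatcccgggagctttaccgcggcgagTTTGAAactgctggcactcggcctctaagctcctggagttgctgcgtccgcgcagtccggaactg
Hmmr (a spindle-associated hyaluronan receptor, shared region, chr11:40733388-40733687, minus strand): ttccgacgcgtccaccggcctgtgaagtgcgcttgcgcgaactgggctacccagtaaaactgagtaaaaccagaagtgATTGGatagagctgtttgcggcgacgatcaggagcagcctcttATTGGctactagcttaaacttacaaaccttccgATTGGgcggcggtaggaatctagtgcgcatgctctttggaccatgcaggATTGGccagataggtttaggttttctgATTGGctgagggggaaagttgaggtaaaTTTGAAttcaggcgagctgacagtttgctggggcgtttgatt
Spc25 (a kinetochore protein, RBBP4-only region, chr2:69206164-69206463, minus strand): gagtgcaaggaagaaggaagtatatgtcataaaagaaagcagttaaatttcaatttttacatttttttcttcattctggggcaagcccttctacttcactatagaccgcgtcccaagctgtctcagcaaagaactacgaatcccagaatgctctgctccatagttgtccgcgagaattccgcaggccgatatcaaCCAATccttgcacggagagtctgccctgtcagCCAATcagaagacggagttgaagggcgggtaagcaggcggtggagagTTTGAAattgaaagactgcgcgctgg
Ccnb2 (cyclin B2, RBBP4-only region, chr9:70421505-70421804, minus strand): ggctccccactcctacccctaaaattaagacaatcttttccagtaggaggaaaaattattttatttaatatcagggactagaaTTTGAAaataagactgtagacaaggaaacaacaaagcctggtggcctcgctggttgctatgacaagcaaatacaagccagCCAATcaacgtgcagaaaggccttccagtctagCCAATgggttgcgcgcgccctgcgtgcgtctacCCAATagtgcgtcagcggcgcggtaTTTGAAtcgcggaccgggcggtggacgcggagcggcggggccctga
Neurog2 (a neuronal transcription factor, no RBBP4 region, chr3:127632886-127633185, plus strand): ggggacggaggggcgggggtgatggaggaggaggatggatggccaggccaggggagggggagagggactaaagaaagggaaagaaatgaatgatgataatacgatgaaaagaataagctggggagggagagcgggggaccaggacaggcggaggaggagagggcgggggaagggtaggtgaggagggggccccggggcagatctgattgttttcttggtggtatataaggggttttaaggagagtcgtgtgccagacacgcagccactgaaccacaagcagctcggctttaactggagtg

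That the 6 cell cycle windows hold both kinds of letters and the Neurog2 window neither reflects this choice, and the shares over all windows are given with the gene starts. Cdk1 and Ccnb2 each had the CHR letters at 2 places with CCAAT letters between them. These matches are descriptions of the windows and do not show that a factor was bound there.

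The RBBP4 list was the longest of the 6 subunit lists and the least shared. RBBP4 had no other subunit in 54.1% of its regions (exact binomial 95% interval 53.5 to 54.8%, covering counting error only). The share of regions without any other subunit was 22.8% for CHD4, 13.1% for HDAC1, 14.5% for HDAC2, 30.4% for MBD2/3 and 24.8% for MTA1. Read from the other side, RBBP4 was present in 84.2% of HDAC1 regions, 83.9% of HDAC2 regions, 73.0% of CHD4 regions, 72.4% of MTA1 regions and 65.9% of MBD2/3 regions. The lists differ in length by large factors, 25717 regions for RBBP4 against 2017 for CHD4, and these shares depend on the length of each list.

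HDAC2, 1 of the 2 deacetylases of NuRD and SIN3, was the most frequent partner. Its list of 11095 regions was also the longest of the other 5, against 5238 for HDAC1 and 2017 to 3017 for the rest. HDAC2 had a peak in 9306 RBBP4 regions, which is 78.9% of the shared regions. HDAC2 alone accounted for 4750 shared regions (40.3%), HDAC1 with HDAC2 for 1722 and HDAC1 alone for 970. Of all RBBP4 regions, 6808 had 2 subunits in total, 3274 had 3, 1201 had 4, 402 had 5 and 108 (0.420%) had all 6. Leaving HDAC2 out of the definition raised the RBBP4-only share to 72.6%, while leaving out any other subunit gave 55.1 to 57.9%. The part of list length in these values was not tested.

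The RBBP4 library held 9.00 M reads, the other subunits 6.62 to 11.0 M, H3.3 13.6 and 18.4 M and the marks 20.6 to 24.1 M, recovered from the deposited levels. Levels are log2(RPKM + 1) of the reads in a region, as deposited. The median RBBP4 level was 2.06 (quartiles 1.76 to 2.32) in RBBP4-only regions, 2.23 (1.97 to 2.47) in shared regions and 1.06 in regions with no subunit. HDAC2 had a median of 1.48 in RBBP4-only regions, 1.95 in shared regions and 0.95 in regions with no subunit, and HDAC1 1.28, 1.60 and 0.90 in the same order. The ATPase CHD4 had medians of 1.13, 1.33 and 0.87, MBD2/3 1.11, 1.30 and 0.87, and MTA1 1.15, 1.34 and 0.87. The medians of all 5 other subunits in RBBP4-only regions lay between those of the other 2 classes. H3K9ac (0.98, 1.60 and 0.76), H3K27ac (1.16, 1.41 and 0.94) and both H3.3 replicates had the same order, no input library was used here, and whether the other subunits occupy RBBP4-only regions was not tested.

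Some RBBP4-only regions had levels as high as those of the other subunits' peak regions. The HDAC2 level was at or above the median of HDAC2 peak regions in 1170 RBBP4-only regions (8.40%), the MTA1 level in 1142 (8.20%), the HDAC1 level in 1016 (7.30%), the CHD4 level in 788 (5.66%) and the MBD2/3 level in 438 (3.15%). Counting these as shared lowered the RBBP4-only share to 42.7%. For each of these subunits the 95th percentile in regions with no subunit lay under that median, for HDAC2 at 1.63 against 2.04. The median RBBP4-only region held 25 RBBP4 reads and 11 HDAC2 reads, so the counting error of a single region (CV) was 20.0% for RBBP4 and 30.2% for HDAC2. RBBP4-only regions were also shorter, with a median of 980 bp against 1540 bp for HDAC2 regions. The part of length and counting error in these high levels was not tested.

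**Figure D1:**
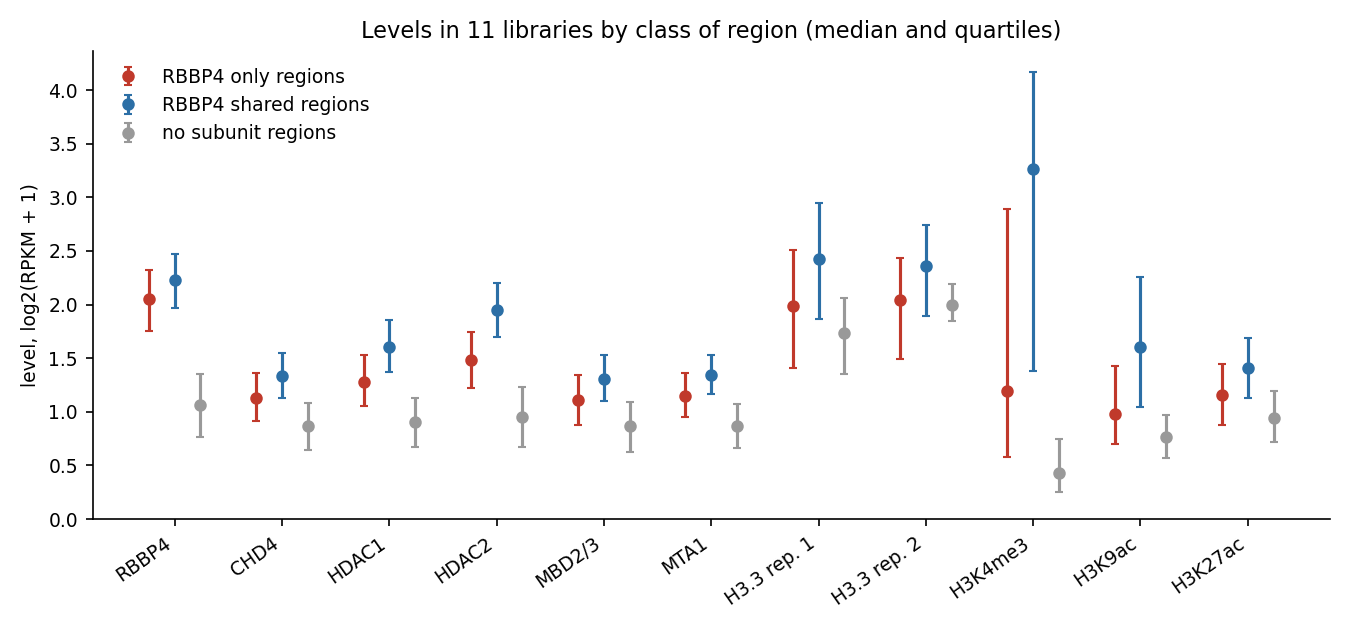
Level of each library, log2(RPKM + 1), in RBBP4-only, shared and no-subunit regions. Points are medians over regions and bars span the quartiles, and H3K4me3 shows the widest gap between RBBP4-only (1.19) and shared regions (3.27).

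Membership rests on peaks of the same library, so the RBBP4 level of members is a description of the rule. Members had a median level of 2.15 and the other 57176 regions 1.09. Of those others, 771 were at or above the members' median, and 40 members were under the others' median. The lowest covered fraction among members was 0.0215, just inside the rule, and every region just outside it has a covered fraction of 0. Counting each subunit only where its peaks cover at least 0.5 of a region made 91.1% of the remaining RBBP4 regions RBBP4-only. The regions are merged from the peaks of 8 libraries and can be wider than any single peak.

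Length also separates the 2 classes. RBBP4-only regions had a median length of 980 bp (quartiles 461 to 1628), against 1626 bp (1018 to 2449) for shared regions. The stretch covered by RBBP4 peaks had a median of 418 bp in RBBP4-only and 785 bp in shared regions. A region made of several overlapping peaks is longer by construction, so shares below are also given by length.

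RBBP4-only regions lay at promoters less often than shared regions. A position up to 3 kb upstream of a gene was annotated for 15.9% of RBBP4-only regions (15.3 to 16.5%), 31.5% of shared regions (30.7 to 32.4%) and 6.62% of regions with no subunit. The 5′ untranslated class held 4.12% of RBBP4-only, 10.7% of shared and 0.658% of no-subunit regions. Introns were annotated for 41.1% of RBBP4-only, 36.2% of shared and 52.2% of no-subunit regions. No gene annotation was given for 35.8% of RBBP4-only, 23.3% of shared and 30.2% of no-subunit regions.

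The marks of active promoters and enhancers differed more in percentage points. H3K4me3, a mark of promoters, had a peak in 50.2% of RBBP4-only regions (49.3 to 51.0%) and in 80.9% of shared regions (80.2 to 81.6%), against 12.1% of regions with no subunit. H3K9ac, found at active promoters, had a peak in 31.2% of RBBP4-only and 66.6% of shared regions. H3K27ac, found at active promoters and enhancers, had a peak in 24.3% of RBBP4-only and 55.8% of shared regions. None of the 3 marks had a peak in 43.0% of RBBP4-only and 14.1% of shared regions, and all 3 did in 15.0% and 47.4%.

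**Figure D2:**
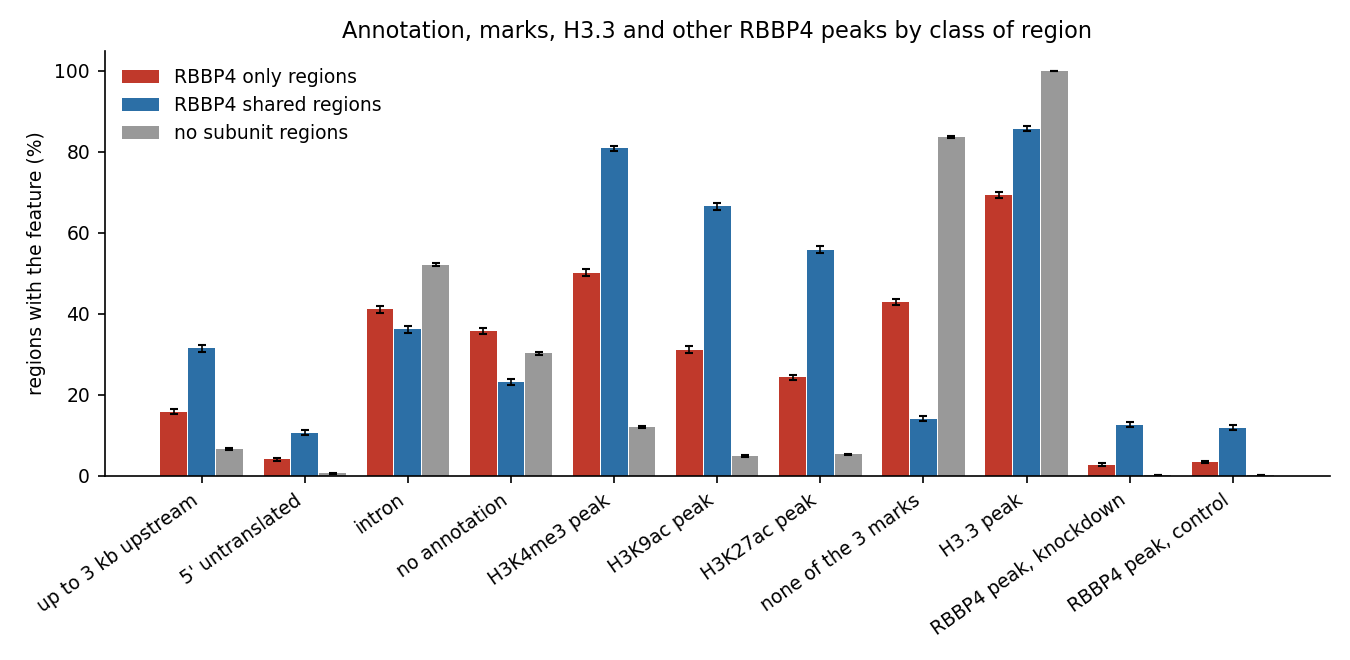
Share of RBBP4-only, shared and no-subunit regions with each annotation or peak, with exact binomial 95% intervals (counting error only). RBBP4-only regions lie below shared regions for H3K4me3 (50.2% and 80.9%), and every no-subunit region has an H3.3 peak because that is why it is in the table.

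The shares with marks grew with up to 4 other subunits. H3K4me3 peaks lay in 50.2% of regions with RBBP4 alone, in 74.7% with 1 other subunit, 87.3% with 2, 92.8% with 3, 95.3% with 4 and 89.8% with all 5. The H3K27ac share was 24.3% with RBBP4 alone, 47.3%, 62.6%, 74.9% and 81.8% with 1 to 4 other subunits and 79.6% with 5. The last step rests on 108 regions, and its H3K4me3 interval of 82.5 to 94.8% overlaps that of regions with 3 others (91.1 to 94.2%).

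The gap in marks was also present among regions of like RBBP4 level or like length. In the lowest 25% of RBBP4 levels, H3K4me3 peaks lay in 40.8% of RBBP4-only and 66.1% of shared regions. In the highest 25% the shares were 60.1% of RBBP4-only and 88.4% of shared regions. Among regions of at most 500 bp the H3K4me3 share was 47.0% of RBBP4-only and 67.3% of shared regions, and among those over 2500 bp 55.0% and 81.8%. The depth of the other subunits' libraries was 6.62 to 11.0 M reads, and how far peaks missed at that depth enter the RBBP4-only class was not tested.

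H3.3 is the replacement variant of histone H3 that is deposited outside of replication, at active genes and regulatory elements among other places. An H3.3 peak in either replicate lay in 69.5% of RBBP4-only regions (68.7 to 70.2%) and in 85.7% of shared regions (85.0 to 86.3%). The median H3.3 level was 1.99 in RBBP4-only and 2.43 in shared regions in replicate 1, and 2.04 and 2.36 in replicate 2. The difference of medians, RBBP4-only minus shared, was −0.38 ± 0.087 (mean and SD of the 2 replicates, log2).

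The pooled H3.3 peak shares had the opposite order to those within length classes, where RBBP4-only regions had the higher share in all 5. In regions of at most 500 bp, H3.3 peaks lay in 5.35% of RBBP4-only and 2.91% of shared regions, and in regions over 2500 bp in 99.9% and 99.8%. Between 500 and 1500 bp the shares were 89.6% of RBBP4-only and 79.5% of shared regions, a difference of 10.1 percentage points against −16.3 over all regions. H3.3 peaks widen the merged regions, so the shares of H3.3 in the table and the length of a region are not separate measurements.

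RBBP4-only regions with a higher RBBP4 level, averaged over the region, less often had an H3.3 peak. In the lowest 25% of RBBP4 levels, all 4581 RBBP4-only regions had an H3.3 peak. In the highest 25%, 542 of 2563 (21.1%, 19.6 to 22.8%) did, against 2752 of 3871 shared regions (71.1%, 69.6 to 72.5%). Across RBBP4-only regions the RBBP4 level had a Spearman correlation of −0.52 with H3.3 replicate 1 and −0.59 with replicate 2, and of −0.66 with region length (n = 13924 regions, which share libraries). In shared regions these were −0.18, −0.24 and −0.31 (n = 11793). A level is an average over the whole region, so a narrow RBBP4 peak inside a wide H3.3 region has a low level, and the part of length in the correlation was not tested. RBBP4-only regions are merged from RBBP4 and H3.3 peaks alone, so an H3.3 peak that widens one lowers its RBBP4 level by construction. Whether RBBP4 and H3.3 occupy separate places therefore cannot be read from these values.

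**Figure D3:**
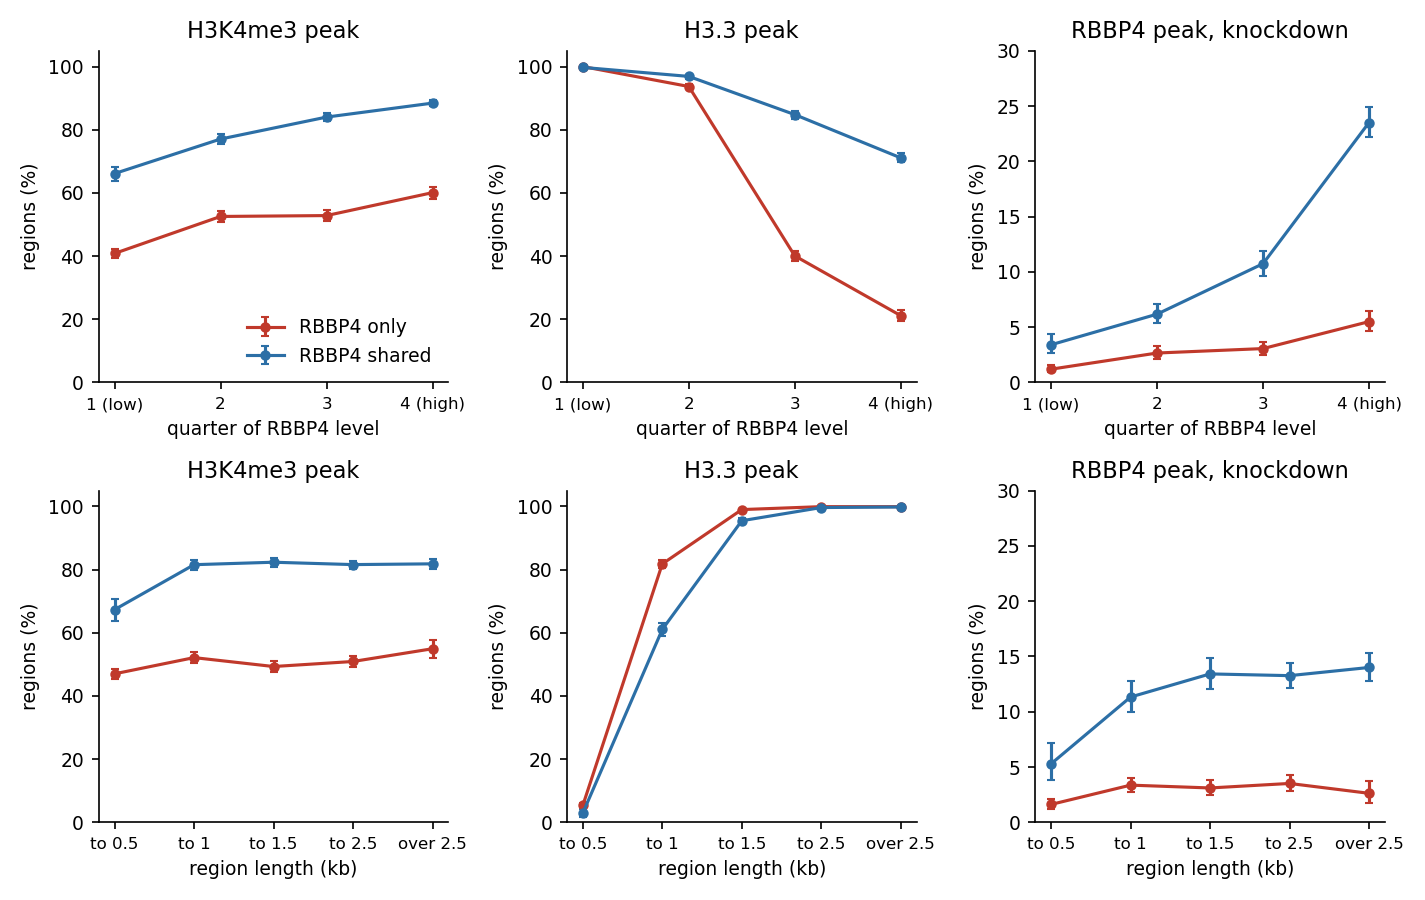
Share of RBBP4-only and shared regions with an H3K4me3 peak, an H3.3 peak or a knockdown RBBP4 peak, by class of RBBP4 level, each with 25% of the regions (top), and by region length in kb (bottom), with exact binomial 95% intervals (counting error only). The H3K4me3 gap is present in every level and length class, while the H3.3 share is higher in RBBP4-only than in shared regions in every length class, against the order over all regions.

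The shared regions of highest RBBP4 level were high in many libraries. The first, chr2:98506340-98507546, had a level of 7.13 for RBBP4, 7.02 for CHD4, 7.10 for HDAC1, 7.53 for HDAC2, 7.29 for MBD2/3, 6.85 for MTA1, 5.73 and 5.22 for H3.3 and 5.70 for H3K4me3. The fourth was the ribosomal RNA gene Rn45s (chr17:39979842-39985867, RBBP4 level 6.42) and the fifth the mitochondrial sequence (5.90 for RBBP4 and 0 in both H3.3 replicates). Of all regions, 4 were above the 99th percentile in all 11 libraries, and all 4 were shared regions.

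The 5 regions with all 6 subunits and the highest RBBP4 level were of the same kind. They were Rn45s, the mitochondrial sequence, chr11:108872729-108873649 with no gene within 5 kb, and 2 regions at Sfi1 (4.61 and 4.56), which encodes a centrosome protein.

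The top RBBP4-only regions were more varied. An intron of Them7 (chr2:105099024-105099768) had 3.66 for RBBP4 against 0.66 for CHD4, 1.35 for HDAC1, 2.45 for HDAC2 and 0.59 for MBD2/3, with H3.3 at 0.58 and 1.30. A region with no gene within 5 kb (chr10:19234085-19234995) had 3.44 for RBBP4, 0.44 for CHD4, 1.18 for HDAC1, 1.22 for HDAC2, 0.35 for MBD2/3 and 1.53 for MTA1. In both, RBBP4 stood well above the other subunits, and the marks were at 0.15 to 0.45.

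Some other top RBBP4-only regions were also high for the other subunits. The first, chr1:48938307-48938533, had 3.93 for RBBP4 and 3.03 to 3.59 for the other 5 subunits, and the eighth, chr8:19971074-19971298, had 3.31 for RBBP4 and 3.42 for CHD4. H3.3 was at 1.71 and 0.97 in the first and at 0.41 and 0 in the eighth. Neither region had a peak of another subunit, and they were 227 and 225 bp long. The seventh lay near Hoxa7 and Hoxa9 (chr6:52171391-52172157), genes of the homeobox cluster that sets position along the body axis, with 3.36 for RBBP4, 4.10 for H3K4me3 and 1.68 and 1.71 for H3.3, and had a peak in the control RBBP4 library.

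The other RBBP4 libraries recovered shared regions more often. A peak of the knockdown library lay in 2.80% of RBBP4-only (2.53 to 3.09%) and 12.6% of shared regions (12.0 to 13.2%). A peak of the control library lay in 3.48% of RBBP4-only (3.18 to 3.80%) and 11.9% of shared regions (11.3 to 12.5%). In regions with no subunit the shares were 0.144% for the knockdown library and 0.221% for the control library. The lists of those libraries are much shorter, 2919 knockdown and 3561 control peaks, and their depth is unknown.

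Read from the peaks, most of them lay at RBBP4 regions. Of the knockdown peaks, 14.8% lay at RBBP4-only and 65.4% at shared regions, and of the control peaks 15.1% and 52.5%. Of peaks with a deposited score of at least 100, 92.1% of knockdown and 92.7% of control peaks lay at RBBP4 regions of either class. Recovery also grew with level: in the highest 25% of levels, knockdown peaks lay in 5.50% of RBBP4-only and 23.5% of shared regions. The control and knockdown libraries are single libraries of unknown depth, so their difference was not read as an effect of H3.3.

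All 6 peaks of the sequential precipitation, in which H3.3-bound chromatin was taken again with RBBP4, lay in shared regions. Of these, 5 were at Aurkb (chr11:68859169-68859389), at Aipl1 and Fam64a, at Cdc25c, at Kif2c (chr4:116854887-116855221) and at Mcph1. Aurkb encodes the Aurora B kinase, Cdc25c a phosphatase that activates CDK1, Kif2c a microtubule-depolymerising kinesin and Mcph1 the microcephalin protein. The fold enrichment of these 5, the peak caller's own value, was 4.59 to 10.2, the unmodified RBBP4 level was 2.94 to 3.55, and each also had a peak in both the knockdown and the control library. For RBBP4-only regions, 0 of 13924 had a sequential peak, which allows a share of up to 0.0265% (upper exact limit). For shared regions it was 6 of 11793 (0.0509%, 0.0187 to 0.111%), an interval that reaches below that limit. So few peaks cannot show a difference between the classes.

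Genes near RBBP4 regions were more often expressed than genes without one. A gene was called near when its locus overlapped a region or lay within 5 kb of it, and a gene near both classes was counted with the shared ones. Over 23951 gene symbols, 54.1% were near an RBBP4 region. RBBP4-only regions were near 3782 genes and shared regions near 9179, and 10990 genes had neither. The median mean FPKM of the 2 control clones was 3.66 near RBBP4-only, 11.7 near shared and 0.00316 near no RBBP4 region. Genes at an FPKM of at least 1 made up 60.5% in control clone 1 and 62.4% in control clone 2 near RBBP4-only regions, 80.7% and 82.4% near shared regions, and 14.5% and 15.3% near neither.

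The 5 genes of highest control FPKM near RBBP4-only regions included 3 ribosomal protein genes, although of 38 such genes listed 5 were near RBBP4-only and 29 near shared regions. Rps28 had an FPKM of 2544 and 2378 in control clones 1 and 2, Rps4x 1512 and 1534, and Rpl6 1196 and 1208. The small nucleolar RNA genes Snord58b (4897 and 0) and Snord52 (3284 and 732) also ranked there, with clones that differ widely. Near shared regions, the translation elongation factor gene Eef1a1 had 6276 and 6369 and Rps2 3592 and 3662. FPKM of transcripts as short as small nucleolar RNAs and microRNAs is unstable, which shows in the spread of Snord19 (11635 and 2122).

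Positions at the gene start were examined with the strand of the RefSeq promoter table and the mm9 locus of each gene, for 17628 genes. As a check, H3K4me3 peaks lay at 91.9% of the starts and 2.38% of the other ends of expressed genes over 5 kb long. An RBBP4 region lay within 1 kb of the start of 7688 genes (43.6%), an RBBP4-only one at 2206 and a shared one at 5482 (31.1%). Among genes at an FPKM of at least 1, 78.5% had an RBBP4 region at the start and 57.0% a shared one. Control expression had a median FPKM of 10.6 with an RBBP4-only region, 15.5 with a shared region and 0.0160 with none.

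RBBP4 at the start became more frequent with expression, and RBBP4 alone became rarer among those starts. RBBP4 regions lay at 7.15% of genes under an FPKM of 1, 49.7% at 1 to 3, 76.4% at 3 to 10, 83.6% at 10 to 30, 87.2% at 30 to 100 and 90.1% at 100 or more. RBBP4-only regions made up 44.6% of the RBBP4 starts under an FPKM of 1, 37.7%, 30.9%, 26.5% and 23.2% in the next 4 classes, and 19.1% at 100 or more.

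**Figure D4:**
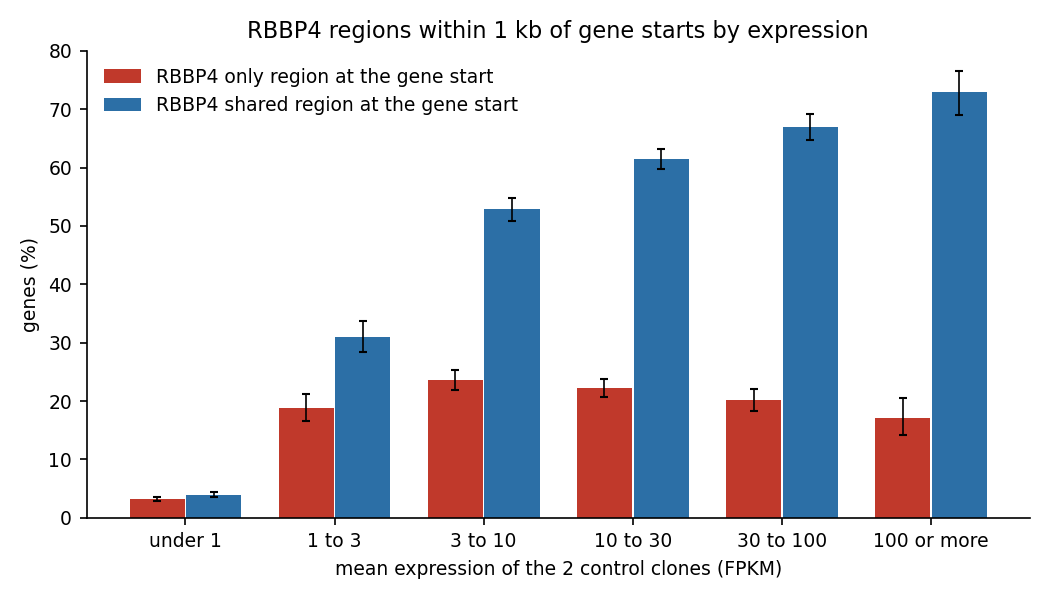
Share of genes with an RBBP4-only or a shared region within 1 kb of the start, by the mean FPKM of the 2 control clones, with exact binomial 95% intervals (counting error only). Shared starts grow from 3.96% under an FPKM of 1 to 72.9% at 100 or more, while RBBP4-only starts stay between 17.2% and 23.6% from an FPKM of 1 on.

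Cell cycle genes known as targets of the DREAM complex all had RBBP4 at the start. The list holds 35 genes, 29 with a placed start, and all 29 had a region there, 26 shared and 3 RBBP4-only. The RBBP4-only starts were Ccnb2 (cyclin B2, level 2.79), Kif23 (a cytokinesis kinesin, 2.72) and Ccne1 (cyclin E1, 2.52). The highest shared starts were Mcm3 (a subunit of the replicative helicase, 3.36), Cenpf (3.36), Bub1 (a spindle checkpoint kinase, 3.22), Ube2c (a ubiquitin-conjugating enzyme of the anaphase-promoting complex, 3.08) and Cdk1 (3.00), and the lowest was Mcm6 at 1.64. The list had a median control FPKM of 53.4, and the share of all genes with RBBP4 at the start was 87.2% at 30 to 100. All 29 are expressed at an FPKM of at least 1, for which the share of all genes with RBBP4 at the start was 78.5%.

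Their levels lay towards the top of all starts. The median RBBP4 level was 2.69 over the 29, against 2.29 over all 7688 starts with a region, and 23 of the 29 were above 2.29. The top 5% of all starts (at or above 2.82) included 8 of the 29 (27.6%), namely Aurka, Bub1, Cdc20, Cdk1, Cenpf, Mcm3, Mcm5 and Ube2c. A peak of the knockdown library lay at 17 of the 29 and of the control library at 9, against 1338 and 1208 of the 7688 starts in all. The level of RBBP4 less the mean of the other 5 subunits had a median of 0.97 over the list and 0.72 over all starts. Over the other gene lists described below, this median ranged from 0.47 (NURF, 1 gene) to 1.14 (MuvB and DREAM, 7 genes). H3.3 had a median level of 1.80 and 1.92 in its 2 replicates at the list's starts and of 2.09 and 2.09 at all starts.

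The highest starts of all held genes of several kinds, and those named here were chosen after their values were seen. The shared region between A730008H23Rik and Hjurp (chr1:90172964-90174574) had an RBBP4 level of 3.95, that of Fbxo48 and 2810442I21Rik 3.77, that of Dazap1, which encodes an RNA-binding protein, 3.68, and the one at Clspn, which encodes the checkpoint protein claspin, 3.68. Kif2c had 3.55 with all 6 subunits, Svep1 3.47, Gtse1 3.47, Kif18b, a mitotic kinesin, 3.38 and Hmmr 3.37. The highest RBBP4-only start was 2810417H13Rik (3.15), the gene of the PCNA-associated factor PAF15. Zmym4 (3.09), Sucla2, a mitochondrial enzyme gene (3.06), Nt5c3b and Klhl10 (3.04) and Sh3bp5 (3.03) followed, and Spc25 had 2.93. Of the 20 highest shared starts, 4 lay on chromosome 4 between 80 and 90 Mb, where the median of all 11 libraries was 0.23 to 0.42 above the rest, and whether the number of DNA copies there differs was not tested.

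The letters of the promoters were counted in the windows of 14878 genes with a placed start and 1 listed promoter. The CHR letters, TTTGAA on either strand, were in 10.7% of windows with an RBBP4-only region, 11.3% with a shared region, 20.2% with none and 16.4% of all. They were in 12 of 28 DREAM target windows (42.9%, 24.5 to 62.8%) and in 24.3% of the windows with an RBBP4 level in the top 5%. Other gene lists, described below, ranged from 0 of 7 (NuRD) to 2 of 5 (MuvB and DREAM genes, and endothelial markers), with 5 of 19 for Hox genes. CCAAT was in 39.8% of RBBP4-only, 40.2% of shared and 39.4% of all windows, and in 21 of 28 DREAM target windows. For CCAAT the other lists ranged from 0 of 6 (haematopoietic markers) to 7 of 9 (replication-coupled histone genes). An E2F-like run, TTNNCGCG on either strand, was in 9.83% of RBBP4-only, 13.0% of shared and 3.20% of windows without RBBP4, in 18.8% of the top 5% and in 4 of 28 DREAM target windows (14.3%).

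Base composition differed less between RBBP4-only and shared windows than between either and windows without RBBP4. The GC box letters GGGCGG were in 68.6% of RBBP4-only, 70.2% of shared and 29.4% of other windows. The median window held 22 CpG in the RBBP4-only class, 23 in the shared class and 5 with no RBBP4 region. TATAAA was in 7.35% of RBBP4-only, 6.04% of shared and 19.1% of other windows, and the AP-1 letters TGANTCA in 4.92%, 4.12% and 9.68%. Windows without RBBP4 are mostly of genes under an FPKM of 1. Among expressed genes those windows held a median of 15 CpG, GGGCGG in 55.2%, TATAAA in 10.3%, AP-1 letters in 6.35%, TTNNCGCG in 5.60% and TTTGAA in 15.0%. CpG content alone changes how often these short runs occur, and its part was not tested.

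Genes of the complexes that contain RBBP4 were examined next. Of 51 measured genes, 47 were within 5 kb of an RBBP4 region, 34 near a shared one and 13 near RBBP4-only ones. Of the 51, 50 were expressed. Among all 11555 expressed genes, 7526 were near a shared region, 2336 near RBBP4-only ones and 1693 near neither. Of 41 genes with a placed start, 35 (85.4%) had a region there, 9 RBBP4-only and 26 shared. Of the 41, 40 were expressed, and the share over all expressed genes was 78.5%. The median control FPKM of the 51 was 20.0, and at 10 to 30 the share over all genes was 83.6%. In NuRD, Rbbp4 itself had a shared region with 4 other subunits at its start (2.85, 120 reads), Gatad2a, a linker subunit, one with 3 (2.45), Mta1 one with HDAC2 (2.64), Hdac2 one with its own product (2.27), Cdk2ap1 one with CHD4 and HDAC1 (2.11), Mta2 one with 3 others (1.93) and Mbd3 one with 2 (1.65). Chd4 had a shared start of 1.76, and Hdac1 (2.60, with 3 others), Chd3 (2.33) and Mta3 (1.68), without a placed start, had shared regions within 5 kb, and Rbbp7, the paralogue of Rbbp4, Mbd2 and Chd5 had RBBP4-only regions (1.75, 2.45 and 1.78). Gatad2b had none.

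In PRC2, which methylates histone H3 lysine 27, the accessory gene Mtf2 had the highest start (3.32, with HDAC2), then Ezh2 (2.90), Jarid2 (2.53), Suz12 (2.48) and Phf1 (2.02), all shared. Ezh1 (2.44), Aebp2 (2.20) and Eed (1.88) had RBBP4-only starts, and Phf19 had no region. Jarid2 also had an internal region of 313 bp with all 6 subunits at 3.75. In CAF-1, Chaf1a had a shared start (2.56) and Chaf1b an RBBP4-only one (2.31). In NURF, Bptf had a shared start (2.34) and Smarca1 no region.

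In SIN3, Suds3 (2.70), Sap30 (2.30), Ing1 (2.16), Brms1l (1.95), Sin3a (1.83) and Arid4b (1.60) had shared starts and Sin3b (2.63) and Ing2 (2.24) RBBP4-only ones. Brms1 (2.41) and Arid4a (1.92) had shared regions near the locus, and Sap18 none. Among the genes of MuvB and DREAM, Rbl1, which encodes p107, had a shared start of 2.80, Mybl2, which encodes B-MYB, 2.63, Tfdp2 2.54, Rbl2 2.30 and Lin52 2.07. Lin54, the CHR-binding subunit, had an RBBP4-only start of 2.71 and Tfdp1 one of 2.29. Lin9 and Lin37 (2.33) had shared regions near the locus, and E2f5 (2.59), Foxm1 (2.27) and E2f4 (2.16) RBBP4-only ones.

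Genes of other lineages, most of them not expressed, mostly lacked RBBP4 at the start. Of 19 developmental regulators with a placed start, 3 had a region there, all shared, of which Pax9 (2.70, control FPKM 2.57 and 4.91) and Gata2 (2.65, 12.6 and 9.57) are expressed in these cells. Within 5 kb, Eomes had a shared region of 2.54 with control FPKM of 0.108 and 0.0330, Dlx5 an RBBP4-only one of 2.67 with FPKM listed at 0, Gata4 an RBBP4-only one of 2.43 and Lhx9 both kinds (2.34 and 2.22). Of 21 Hox genes, 8 (38.1%) had a region at the start (5 RBBP4-only, 3 shared), with Hoxa3 at 2.56. Of these 21, 10 were expressed, and the share over all genes with a placed start was 43.6%. None of 7 haematopoietic and none of 6 neural marker genes had one. Of the 7 haematopoietic genes 1 was expressed and of the 6 neural genes none, at a mean control FPKM of at least 1, and the share over genes under an FPKM of 1 was 7.15%. Of the epithelial markers 2 of 7 and of the endothelial markers 1 of 5 had a region at the start, and 1 gene of each list was expressed.

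Genes of fibroblasts and of the serum response were nearly all expressed, and their shares are to be read against the 78.5% of expressed genes with RBBP4 at the start. That share was 83.6% at an FPKM of 10 to 30 and 87.2% at 30 to 100. The median control FPKM was 23.2 for the AP-1 and serum response list and 97.5 for the fibroblast and matrix list. Of 19 AP-1 and serum response genes, 18 had RBBP4 at the start (4 RBBP4-only, 14 shared), with the transcription factor genes Jun at 3.19 (387 reads) and Klf4 at 3.14 among the top 5%, while Klf2 (2.71), Egr2 (2.41) and Jund (2.40) were RBBP4-only. Near the locus, Myc had 3.00 and Klf10 2.79. Of 16 fibroblast and matrix genes 14 (87.5%) had one, with Twist2 at 2.80 and Pdgfra, a growth factor receptor of fibroblasts, at 2.52 as shared starts and the collagen genes Col3a1 (2.61) and Col6a2 (2.58) as RBBP4-only starts. Fn1 (2.59) and Col1a1 (2.52) had shared regions at the locus, and Sparc (2.79) and Col5a1 (2.61) each had an RBBP4-only region within 5 kb besides a shared start (2.28 and 2.17). The 11 fibroblast markers were all expressed in the controls, and their summed FPKM was 7859 to 8680 in knockdown and 5707 to 5828 in control clones. Such a sum can be set by a few abundant genes. Single markers differed in both directions, from −1.13 (Twist2) to 0.95 (S100a4) in log2, knockdown minus control. None of them passed the test for H3.3 knockdown given below.

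The remaining lists had shares of 92.6%, 85.0% and 70.0%, beside 78.5% of expressed genes. Their median control FPKM was 1165, 81.7 and 1.29. The share over all genes was 49.7% at an FPKM of 1 to 3, 87.2% at 30 to 100 and 90.1% at 100 or more. Regions at the start were found for 25 of 27 cytosolic ribosomal protein genes (7 RBBP4-only, 18 shared, median level 2.25), for 17 of 20 amino acid stress genes (2 and 15, 2.27) and for 7 of 10 replication-coupled histone genes (3 and 4, 2.26). Of the histone genes, Hist1h4i (2.81) had a shared start and Hist1h4a (2.42) and Hist1h2bk (2.26) RBBP4-only ones, although their copies in the clusters can share reads.

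**Figure D5:**
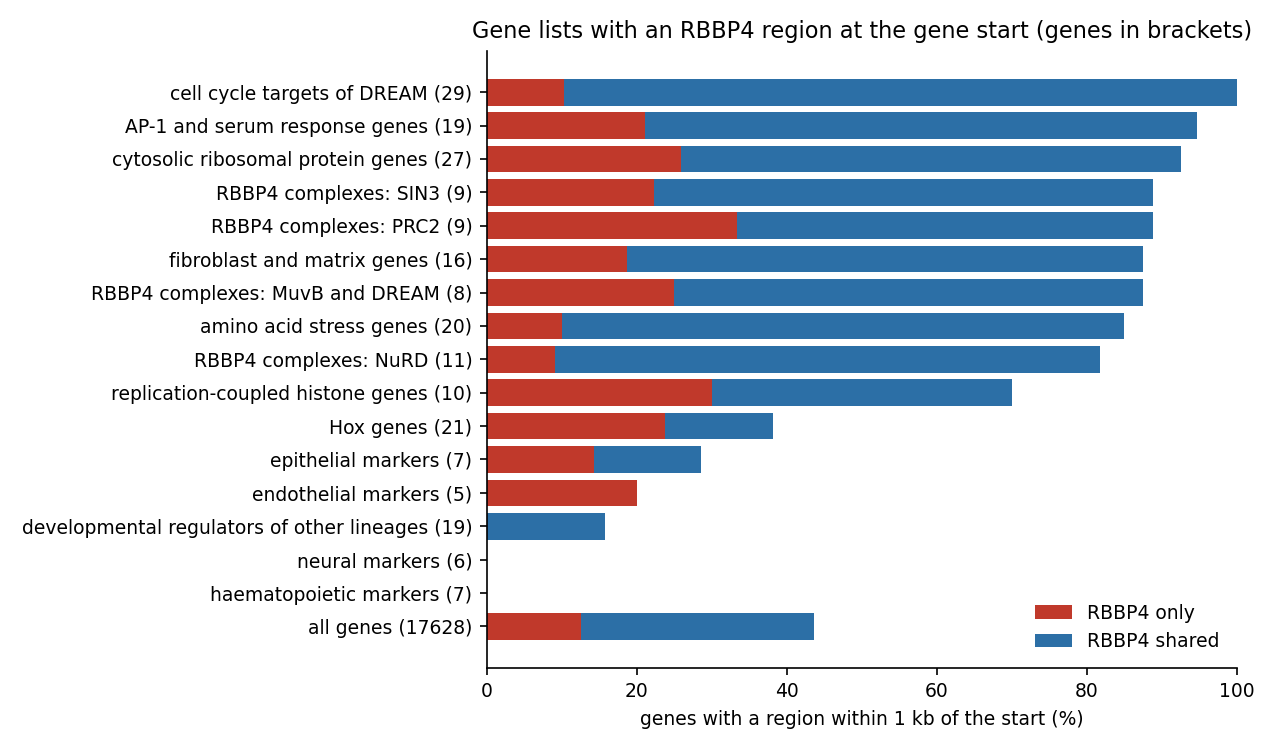
Share of the genes of each list with an RBBP4-only or a shared region within 1 kb of the start, with the number of genes with a placed start in brackets. All 29 DREAM targets and none of the haematopoietic or neural markers have a region, beside 43.6% of all 17628 genes, 78.5% of expressed genes and 7.15% of genes under an FPKM of 1. Among genes at an FPKM of 30 to 100 the share was 87.2%.

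Few genes passed the test for H3.3 knockdown, near RBBP4 or elsewhere. The knocked-down genes checked the labels: H3f3a had an FPKM of 71.8, 35.6 and 5.05 in knockdown clones 1 to 3, against 128.3 and 143.5 in the control clones, and H3f3b 144.4, 104.3 and 51.7 against 249.4 and 237.1. Both were lower in all 3 knockdown clones, and with limma the adjusted p was 0.52 for H3f3a and 0.47 for H3f3b. Over 11728 genes, limma called 4 (0.0341%) at an adjusted p under 0.05, and 1150 at an unadjusted p under 0.05.

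The 4 were small RNA genes, each listed at 0 in every clone of 1 group. Mir6993, near an RBBP4-only region, had an FPKM of 0 in the 3 knockdown clones, against 317.3 and 159.1 in the control clones. Mir1907, near a shared region, had 0 in the knockdown clones and 23.5 and 47.2 in the control clones, and Mir6948, near no RBBP4 region, 0 in the knockdown clones and 231.6 and 464.4 in the control clones. Snord73a, near a shared region, had 313.4, 216.3 and 308.6 in the knockdown clones and 0 in both control clones. An FPKM of 0 for such short transcripts can be a failed estimate, so no fold is given.

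The median log2 difference, knockdown minus control, was −0.083 over 2366 genes near RBBP4-only regions, −0.11 over 7607 near shared regions, −0.040 over 1755 near neither and −0.098 over all. Unadjusted p under 0.05 was reached by 10.3%, 9.43% and 10.8% of them, in the same order. By clone, the median near RBBP4-only regions was −0.12, −0.090 and −0.050 and near shared regions −0.15, −0.085 and −0.077 in knockdown clones 1 to 3, relative to the mean of the controls. Over all 11728 genes, 40.1% had a difference above 0. Of the 35 DREAM targets, limma called none (1 at an unadjusted p under 0.05), 33 had a difference below 0 and their median was −0.62. Of 22 amino acid stress genes none was called (8 at an unadjusted p under 0.05, 19 below 0, median −0.82). Nor was any of 23 fibroblast and matrix genes (6 at an unadjusted p under 0.05, 7 below 0, median 0.47). The clone numbers are not stated to mark shared cultures, and p-values measure the spread between these clones.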

How the data were processed

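The members and gene lists were chosen with earlier results of these data known. The deposited region table gives the fraction of each mm9 region covered by the authors' peaks, and a second deposited table gives levels that the authors made as log2(RPKM + 1). Whole reads came out for 100% of these levels in regions that held reads but fewer than 100 (tolerance 0.05 reads), which gave the depths. Higher counts were not checked in this way. The deposited peak lists hold a score per peak by the authors' caller, and the sequential list holds a fold enrichment by MACS 2.1.1.20160309, per the file headers. FPKM per gene were deposited by the authors. Bowtie, TopHat, Cufflinks, Cuffdiff, bedtools and MACS2 are named in the submitters' processing notes, without settings. Of the FPKM entries, 24457 were summed to 23951 symbols, and 2 with a failed status were kept.

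Overlaps by at least 1 base and exact binomial 95% intervals were computed with Python 3.11.15, numpy 2.4.6, pandas 2.3.3 and scipy 1.17.1. With 1 library per protein, region classes were compared without a test, and intervals cover counting error only. Knockdown and control FPKM were compared with limma 3.58.1 in R 4.3.3 on log2(FPKM + 1), for genes of mean FPKM of at least 1, with a trend and Benjamini-Hochberg adjustment, which understates changes of low genes. The fit was checked on simulated data. Start positions took the mm9 locus and the strand of the RefSeq promoter table. No depth was given for the peak lists or the FPKM.

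Named regions were the 8 highest RBBP4-only, the 8 highest shared and the 5 highest with all 6 subunits. Named genes were up to 4 per class and list by RBBP4 level, all genes of the RBBP4 complexes, and the 5 of highest control FPKM near each class. Genes ranked by the level at their start, and further list members, were named after their values were seen. Alternatives covered the covered fraction, each subunit left out, region length, level, overlap, score, distance, pseudocount, FPKM minimum, quantile normalization, clones left out and a replicate block. Some items are not reported here.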

Additional observations from a re-analysis of the deposited data

How the results depend on the processing

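The RBBP4-only share of 54.1% was 91.1% when a covered fraction of at least 0.5 was required, 42.7% when a level at or above the median of a subunit's peak regions counted as present, and 55.1%, 57.9%, 72.6%, 55.6% and 56.0% with CHD4, HDAC1, HDAC2, MBD2/3 or MTA1 left out. The upstream 3 kb difference, RBBP4-only minus shared, was −15.6 points over all regions, −18.8 at 500 to 1500 bp, −14.2 at or above the median RBBP4 level and −11.0 at the covered fraction of 0.5. The H3K4me3 difference of −30.7 points was −13.6 at that covered fraction, −28.3 when 50% of a region had to be overlapped and −32.1 for peaks with a score of at least 100. The difference in knockdown peaks of −9.82 points was −13.8 at or above the median level, −0.544 at 50% overlap and −4.38 at the score of 100. The H3.3 peak difference was −16.3 points over all regions, 10.1 points at 500 to 1500 bp and 22.8 points at the covered fraction of 0.5. The expressed share differed by −20.2 points, by −22.0 within 50 kb and by −22.6 at an FPKM of at least 5. The causes were not tested.

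With limma, 1 gene was called near RBBP4-only regions, 2 near shared regions and 4 in all. Leaving out a clone gave 1 to 3, 2 to 10 and 8 to 30, with the most without control clone 1 (RBBP4-only and all genes) or control clone 2 (shared). A minimum FPKM of 5 left 1 near shared regions. With the clone number as a replicate block, 0 were called near RBBP4-only regions, 0 near shared regions and 0 in all, with 504 at an unadjusted p under 0.05. Same-numbered clones had correlations of deviations of −0.25 and −0.10, and the labels do not say that a number marks a shared culture. Quantile normalization turned the median near RBBP4-only regions from −0.083 to 0.0062. Leaving out the stretch of chromosome 4, mitochondrial sequence and regions high in all libraries, an alternative chosen after seeing the data, gave an RBBP4-only share of 54.2%. Median reads per RBBP4-only region of 9 to 13 for the other subunits limit how firmly absence of a peak can be read.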

Other observations

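A set of 2045 RBBP4-only regions (14.7%) had neither an H3.3 peak nor a peak of any of the 3 marks. Regions with other subunits and no RBBP4 had an H3K4me3 peak in 34.6%, an H3K27ac peak in 12.5% and an H3.3 peak in 32.9% of cases, and none of the marks in 62.7%. They were short, with a median length of 212 bp against 1270 bp for all RBBP4 regions.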
